A study of Mus musculus with 23 samples.

Results

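Heterotrimeric G proteins and the RGS (regulator of G-protein signalling) proteins that switch them off were followed in punches of mouse nucleus accumbens. The members were the genes whose annotated symbol begins with Gna, Gnb, Gng or Rgs and names a G-protein subunit or an RGS protein, with Gnal, Rgs5 and Rgs9 left out. The array's annotation holds 49 such genes. A gene was tested where at least 1 of its probes had a detection p under 0.01 on at least 5 of the 23 arrays, and 34 members passed, among 10138 genes tested in all. The 15 members that did not pass were Gnai3, Gnat1, Gnat2, Gnat3, Gna14, Gna15, Gnb3, Gng5, Gng8, Gngt1, Gngt2, Rgs1, Rgs13, Rgs18 and Rgs20. Of the tested members, Gng11 was detected on 10 arrays, Rgs6 on 15 and Rgs3 on 21, and the other 31 on all 23.

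The animals were C57BL6 mice of both sexes that were either heterozygous for the S321X allele of Foxp2 (S321X/+), which puts a stop codon into 1 copy of this forkhead transcription factor, or wild type. The nucleus accumbens belongs to the ventral striatum, and it was punched out 1 h after an intraperitoneal injection of cocaine at 15 mg/kg or of saline. Cocaine was given to 6 and saline to 5 of the S321X/+ samples, and each injection to 6 of the wild-type samples, which the labels call biological replicates. The allele is carried by every cell of the animal and the punch holds every cell type of the tissue, and fewer cells of a type and less RNA per cell cannot be told apart. All values are log2 intensities of Illumina MouseWG-6 v2 probes after normalization, each gene is represented by its brightest tested probe, and levels of different genes are not compared with each other.

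A G protein consists of an alpha subunit, which binds GTP when a receptor activates it, and a beta-gamma pair, which is released and signals by itself. Alpha subunits of the Gs kind stimulate adenylyl cyclase, those of the Gi/o kind inhibit it and those of the Gq/11 kind activate phospholipase C. RGS proteins speed up the hydrolysis of GTP by alpha subunits and thereby end the signal. In the striatum these proteins carry the signals of dopamine, adenosine, opioid and muscarinic receptors.

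Foxp2 itself, the check of the genotype labels, stood on its 3 detected probes at 65.7%, 68.2% and 71.5% of wild type in S321X/+ mice after saline and at 61.0%, 61.6% and 69.2% after cocaine. None of these differences passed the test (limma, adjusted p = 0.999 on every probe after saline and 0.708 to 0.811 after cocaine). After saline the genotypes did not overlap on 2 of the 3 probes, and after cocaine they overlapped on every probe, with 1 S321X/+ array (9.22 on ILMN_3140000) above the highest wild-type array (8.94). Averaged over the genotypes, Foxp2 differed between cocaine and saline by -0.65 ± 0.19 on its brightest probe, which did not pass the test (limma, adjusted p = 0.0520). The arrays detected 16102 to 17933 probes each, and their number limits the precision. All 13 markers of striatal projection neurons on the array were detected. Marker levels differed between the injections. Of 9 detected markers of excitatory cortical neurons (Emx1 was undetected), 6 were called higher after cocaine, with a median log2 difference of 0.97, and 8 of the 13 striatal markers were called lower, with a median of -0.36. The excitatory score, the mean log2 deviation of these genes from their mean over all arrays, ranged from -0.21 to 1.08 in S321X/+ cocaine arrays, from -1.47 to -0.07 in S321X/+ saline arrays, from -0.35 to 0.62 in wild-type cocaine arrays and from -0.73 to 0.02 in wild-type saline arrays. The striatal score ranged from -0.68 to 0.05, from 0.04 to 0.28, from -0.21 to 0.17 and from 0.14 to 0.26 in the same order of groups. S321X/+ cocaine arrays 9, 16 and 19 held the 3 lowest striatal and the 3 highest excitatory scores of all 23 arrays. Of the other lists, 2 of 5 markers of GABA interneurons were called higher, the 1 detected marker of choroid plexus and ependyma was called lower (Aqp1, Folr1, Foxj1 and Ttr were undetected), and 0 markers of cholinergic neurons, astrocytes, oligodendrocytes and their precursors, microglia, endothelial and mural cells or blood were called by limma. At an unadjusted p under 0.05 these lists held 3 cholinergic, 2 endothelial or mural, 1 astrocyte and 1 microglial marker. All these marker counts are averaged over the genotypes. In S321X/+ mice alone the cholinergic marker Slc5a7 was called lower after cocaine (limma, -0.91, adjusted p = 0.0297). The mean cholinergic score there was -0.44 after cocaine and 0.33 after saline, against 0.09 and 0.07 in wild type.

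Upstream sequences are given for the members that passed the test, Gng7 and Gng4, and for Rgs2, known as an inducible RGS gene in rodent striatum. Each is the 250 bases before an annotated start in RefSeq (GRCm38.p6), read 5′ to 3′ on the gene's strand, and capitals mark matches to the motifs searched. The windows lie at chr10:81014926-81015175 (minus strand, outer start of Gng7), chr10:81001366-81001615 (minus strand, inner start of Gng7), chr13:13783809-13784058 (plus strand, outer start of Gng4) and chr1:144004150-144004399 (minus strand, Rgs2).
Gng7 outer start: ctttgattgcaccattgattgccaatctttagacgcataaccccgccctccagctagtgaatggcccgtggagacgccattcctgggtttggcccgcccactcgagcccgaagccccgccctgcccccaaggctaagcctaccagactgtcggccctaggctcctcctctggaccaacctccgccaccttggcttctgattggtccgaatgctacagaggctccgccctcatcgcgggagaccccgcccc
Gng7 inner start: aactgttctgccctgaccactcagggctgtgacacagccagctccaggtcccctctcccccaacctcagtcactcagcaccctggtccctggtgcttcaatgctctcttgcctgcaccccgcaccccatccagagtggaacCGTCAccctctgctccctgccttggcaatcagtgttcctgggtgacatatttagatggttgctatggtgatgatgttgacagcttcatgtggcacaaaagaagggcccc
Gng4 outer start: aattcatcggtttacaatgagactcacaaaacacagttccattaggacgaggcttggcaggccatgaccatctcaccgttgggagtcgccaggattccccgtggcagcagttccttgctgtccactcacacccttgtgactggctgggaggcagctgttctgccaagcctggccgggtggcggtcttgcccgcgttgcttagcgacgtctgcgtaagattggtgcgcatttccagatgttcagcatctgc
Rgs2: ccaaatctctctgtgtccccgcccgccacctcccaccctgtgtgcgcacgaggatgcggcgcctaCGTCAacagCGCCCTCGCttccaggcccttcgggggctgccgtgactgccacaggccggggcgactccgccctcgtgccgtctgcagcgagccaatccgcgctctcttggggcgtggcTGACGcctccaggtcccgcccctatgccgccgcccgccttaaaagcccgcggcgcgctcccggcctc
The letters searched on both strands were TGACGTCA (the full cAMP response element), TGACG (the core of that element, which lies within the full one), TGANTCA (the AP-1 site) and GCGNGGGCG (the EGR site). The Rgs2 window held 2 cores and 1 EGR site, the inner Gng7 window held 1 core, and the outer Gng7 and Gng4 windows held none of these letters. Of the 34 members, 28 matched the promoter table, with 41 windows. The full element was in 0 of these 41 windows and in 1.55% of all 32851 windows, the core in 24.4% against 17.8%, the AP-1 site in 7.32% against 6.75%, and the EGR site in 9.76% against 4.7%. Such a match is a run of letters, not a measured binding site, and no match says only that these letters are not in the window.

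Cocaine was compared with saline, averaged over the genotypes, to describe the difference between the injections after 1 h. Marker levels also differed between the injections, as given above, and this comparison cannot tell a response to cocaine apart from them. The gamma subunit gene Gng4 rose and the gamma subunit gene Gng7 fell, and the other 32 members did not pass the test (limma, two-sided, Benjamini-Hochberg adjusted p under 0.05 over all probes tested). These 2 of 34 members are 5.88%, against 4.45% of all genes tested (3.16% higher and 1.29% lower), so the share is near the background. At an unadjusted p under 0.05 there were 14 members, 7 higher and 7 lower, which is 41.2% against 19.2% of all genes (9.62% higher and 9.61% lower). The median difference of the members was -0.01 on the log2 scale, as over all genes, while the median size of the difference without its sign was 0.17 for the members and 0.09 over all genes. None of the 34 members had cocaine and saline arrays that did not overlap, against 0.109% of all genes.

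**Figure D1:**
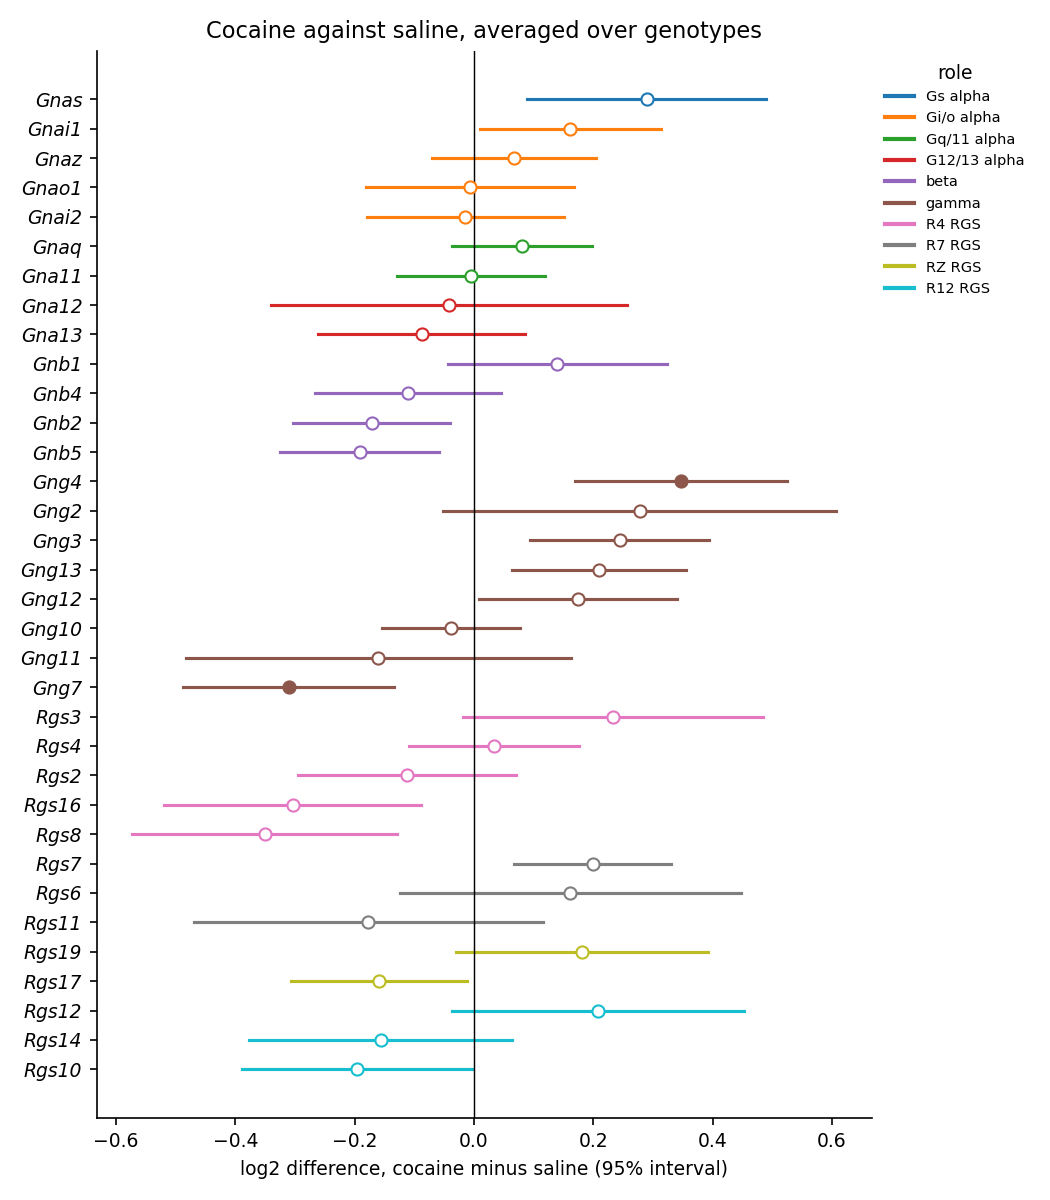
Log2 difference between cocaine and saline arrays, averaged over the genotypes, for each of the 34 tested members (points) with its 95% interval (lines), ordered by role and coloured by it, as the legend shows. Filled points are the 2 called members, Gng4 at 0.35 and Gng7 at -0.31, and the open points of the other members lie between -0.35 and 0.29.

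Gng7 encodes the gamma subunit that in mouse striatum assembles with the olfactory-type stimulatory alpha subunit and couples dopamine and adenosine receptors to adenylyl cyclase. Its level on its brightest probe (ILMN_3103233) was lowest 13.01, median 13.23 and highest 13.76 in the 6 S321X/+ cocaine arrays, against 13.57, 13.71, 13.72, 13.86 and 13.87 in the 5 S321X/+ saline arrays. In wild type it was lowest 13.40, median 13.61 and highest 13.65 after cocaine, against lowest 13.67, median 13.75 and highest 13.91 after saline. In wild type all 6 cocaine arrays thus lay below all 6 saline arrays, in S321X/+ mice 4 of 6 cocaine arrays lay below all 5 saline arrays, and the 3 lowest values of the gene, 13.01, 13.02 and 13.03, belonged to S321X/+ cocaine arrays 9, 16 and 19, which also had the lowest striatal marker scores. Gng7 fell by 0.31 ± 0.09 on the log2 scale (SE, 12 against 11 arrays), to 80.6% of the saline level, with an adjusted p of 0.0421 (limma). Its other 2 tested probes had differences of -0.65 ± 0.13 (ILMN_3030009, adjusted p = 0.00629) and -0.41 ± 0.12 (ILMN_1216625, adjusted p = 0.0608). The call of the first of these probes did not hold without S321X/+ cocaine arrays 9, 16 and 19 (-0.49, adjusted p = 0.0847). Leaving out single arrays gave adjusted p between 0.0111 and 0.0847 and ended the call of Gng7 in 17 of 23 fits, and the call held without S321X/+ cocaine arrays 3, 11 or 23, S321X/+ saline array 6, wild-type cocaine array 4 or wild-type saline array 17.

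Gng4, a gamma subunit expressed mainly in neurons, had a difference of the opposite sign. Its level (probe ILMN_1244018) was lowest 9.58, median 9.67 and highest 10.03 in S321X/+ cocaine arrays, against 9.20, 9.23, 9.24, 9.46 and 9.62 in S321X/+ saline arrays. In wild type it was lowest 9.10, median 9.55 and highest 9.69 after cocaine, against lowest 8.94, median 9.19 and highest 9.36 after saline. The groups overlapped in both genotypes, with 3 of 6 S321X/+ and 4 of 6 wild-type cocaine arrays above all saline arrays of their genotype. Gng4 rose by 0.35 ± 0.09 on the log2 scale (SE, 12 against 11 arrays), which is 1.27-fold, with an adjusted p of 0.0249 (limma). The call ended, with adjusted p values of 0.0524, 0.0510, 0.0549 and 0.0534, when S321X/+ cocaine array 9 or 16 or S321X/+ saline array 14 or 18 was left out.

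**Figure D2:**
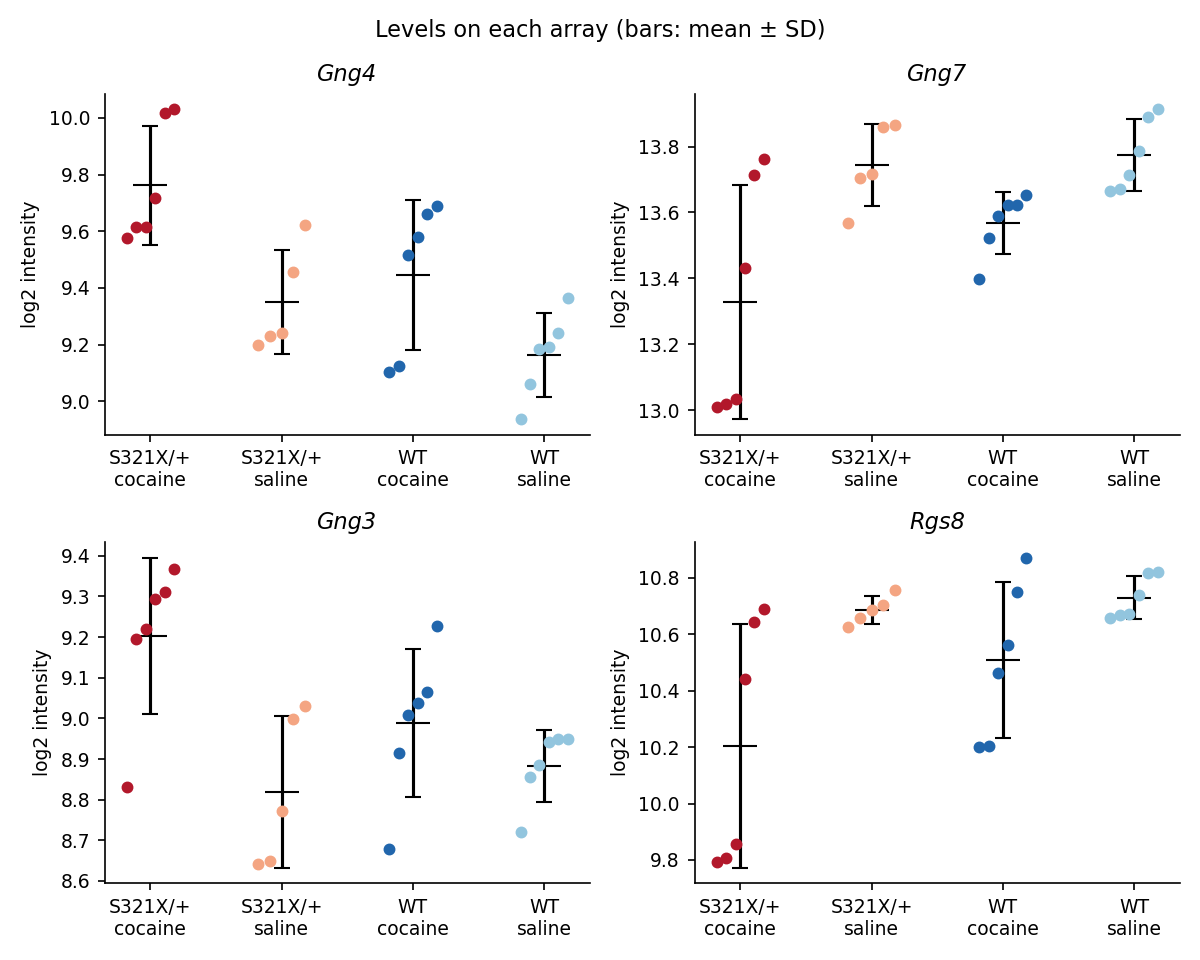
Log2 intensity of Gng4, Gng7, Gng3 and Rgs8 on each array (points) in the 4 groups, S321X/+ and wild-type (WT) mice given cocaine or saline, with the mean and SD of each group (bars). The 3 lowest points of Gng7, between 13.01 and 13.03, and of Rgs8, between 9.79 and 9.86, are S321X/+ cocaine arrays 9, 16 and 19, while the saline groups of Rgs8 lie within 10.63 to 10.82.

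Of the 8 tested gamma subunits, 1 was called higher and 1 lower, against 4.45% of all genes, and 4 higher and 1 lower had an unadjusted p under 0.05, against 19.2%. The remaining gamma subunits were Gng2, Gng3, Gng10, Gng11, Gng12 and Gng13. Gng3, a neuronal gamma subunit, was lowest 8.83, median 9.26 and highest 9.37 in S321X/+ cocaine arrays, against 8.64, 8.65, 8.77, 9.0 and 9.03 in S321X/+ saline arrays, and 5 of 6 cocaine arrays lay above all saline arrays. In wild type it was lowest 8.68, median 9.02 and highest 9.23 after cocaine, against lowest 8.72, median 8.91 and highest 8.95 after saline, and the groups overlapped. Its averaged difference of 0.24 ± 0.07 did not pass the test (adjusted p = 0.0593). Gng13, known from taste cells and retinal bipolar cells of the mouse, differed by 0.21 ± 0.07 (adjusted p = 0.0974) and Gng12 by 0.17 ± 0.08 (adjusted p = 0.251). Gng10 and Gng11 differed by -0.04 and -0.16. The call differed between the 2 probes of Gng2, with 0.28 ± 0.16 on the brighter one (adjusted p = 0.386) and 0.59 ± 0.14 on the other (ILMN_1214150, adjusted p = 0.0210). On the dimmer probe Gng2 ranged from 8.57 to 9.70 in S321X/+ cocaine, from 7.92 to 8.65 in S321X/+ saline, from 8.06 to 9.03 in wild-type cocaine and from 7.52 to 8.50 in wild-type saline arrays, so both genotypes overlapped. Without the same 3 arrays this probe of Gng2 had 0.46 (adjusted p = 0.201).

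Among the alpha subunits, 0 of 9 passed the test on their brightest probe (limma), against 4.45% of all genes. Only Gnas and Gnai1 had an unadjusted p under 0.05, against 19.2% of all genes. Gnas, which encodes the stimulatory alpha subunit from an imprinted locus with several transcripts, ranged from 11.90 to 12.93 in S321X/+ cocaine, from 11.79 to 12.23 in S321X/+ saline, from 11.97 to 12.37 in wild-type cocaine and from 11.75 to 12.25 in wild-type saline arrays, overlapping in both genotypes. Its difference was 0.29 ± 0.10 on this probe (adjusted p = 0.0947) and 0.37 ± 0.09 on a dimmer one (ILMN_1223437, adjusted p = 0.0269), and all 5 tested Gnas probes had a positive difference. Without the same 3 arrays the dimmer probe of Gnas had 0.29 (adjusted p = 0.257). The inhibitory subunit genes Gnai1, Gnai2, Gnao1 and Gnaz differed by 0.16 (adjusted p = 0.245), -0.01, -0.01 and 0.07. The phospholipase-coupled Gnaq and Gna11 differed by 0.08 and 0.00, and Gna12 and Gna13, of the G12/13 kind, by -0.04 and -0.09. With any called probe counted, 4 members were called, Gng2, Gng4, Gng7 and Gnas, which is 11.8% against 5.27% of all genes. Counted by probe, 5 of the 56 tested probes of members were called, against 3.87% of all probes. Of the 15 members with more than 1 tested probe, 8 had probes that all shared a sign and 7 did not. These 7 were Gna11, Gna13, Gnai2, Gnao1, Gnaq, Gnb4 and Rgs17. The Gnaq probes ran from -0.21 to 0.18, and the dimmer Rgs17 probe had 0.01.

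The beta subunits, the constant partners of gamma, had 0 of 4 genes called by limma and 2 with an unadjusted p under 0.05, Gnb2 and Gnb5, both lower, against 4.45% and 19.2% of all genes. Gnb5, which pairs with the R7 group of RGS proteins in place of a gamma subunit, ranged from 12.01 to 12.49 in S321X/+ cocaine, from 12.34 to 12.66 in S321X/+ saline, from 12.27 to 12.63 in wild-type cocaine and from 12.35 to 12.60 in wild-type saline arrays, again overlapping. Its difference was -0.19 ± 0.06 (adjusted p = 0.0966), and 9 of 12 cocaine arrays lay below all 11 saline arrays. Gnb2 differed by -0.17 ± 0.06 (adjusted p = 0.138), Gnb4 by -0.11 ± 0.08 (adjusted p = 0.481) and Gnb1, a widely expressed beta subunit, by 0.14 ± 0.09 (adjusted p = 0.445).

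The RGS proteins had 0 of 13 genes called by limma, against 4.45% of all genes, and 5 with an unadjusted p under 0.05, against 19.2%, Rgs7 higher and Rgs8, Rgs10, Rgs16 and Rgs17 lower. Rgs8, a small RGS protein of the R4 group with high levels in Purkinje cells and striatum, was lowest 9.79, median 10.15 and highest 10.69 in S321X/+ cocaine arrays, against 10.63, 10.66, 10.69, 10.70 and 10.76 in S321X/+ saline arrays. In wild type it was lowest 10.20, median 10.51 and highest 10.87 after cocaine, against lowest 10.66, median 10.71 and highest 10.82 after saline. The cocaine groups were spread more widely, with an SD of 0.43 and 0.28 against 0.05 and 0.08 in the saline groups of S321X/+ and wild-type mice, and they overlapped the saline groups. Its difference of -0.35 ± 0.11 did not pass the test (adjusted p = 0.0665).

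Rgs16, also of the R4 group, ranged from 7.29 to 8.0 in S321X/+ cocaine, from 7.85 to 8.29 in S321X/+ saline, from 7.55 to 8.22 in wild-type cocaine and from 7.91 to 8.80 in wild-type saline arrays, overlapping in both genotypes, and differed by -0.30 ± 0.10 (adjusted p = 0.103). Rgs2, which acts mainly on Gq, ranged from 8.03 to 8.76, from 8.47 to 8.84, from 8.27 to 8.73 and from 8.32 to 8.80 in the same groups, which overlapped throughout, and differed by -0.11 ± 0.09 (adjusted p = 0.562, 95% interval -0.30 to 0.07). Rgs4, an abundant RGS protein of cortex and striatum, differed by 0.03 ± 0.07 (adjusted p = 0.867, 95% interval -0.11 to 0.18), and Rgs3 by 0.23 ± 0.12 (adjusted p = 0.323).

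Of the R7 group, whose members are held at the membrane by an anchor protein and bind Gnb5, Rgs7 ranged from 11.13 to 11.79 in S321X/+ cocaine, from 11.04 to 11.26 in S321X/+ saline, from 11.11 to 11.33 in wild-type cocaine and from 11.01 to 11.22 in wild-type saline arrays, and the injections overlapped in both genotypes. It differed by 0.20 ± 0.06 (adjusted p = 0.0794), while Rgs6 differed by 0.16 ± 0.14 and Rgs11 by -0.18 ± 0.14. In the RZ group Rgs17 and Rgs19 differed by -0.16 ± 0.07 and 0.18 ± 0.10. In the R12 group, which includes proteins with additional domains for binding inactive alpha subunits, Rgs10, Rgs12 and Rgs14 differed by -0.20 ± 0.09, 0.21 ± 0.12 and -0.16 ± 0.11. For comparison, Rgs9, the striatal member of the R7 group that was left out of the members, fell by 0.42 ± 0.10 (adjusted p = 0.0179). The other genes left out, Gnal and Rgs5, differed by -0.20 ± 0.09 (adjusted p = 0.225) and 0.24 ± 0.09 (adjusted p = 0.152). The settings with marker scores or without arrays, described below, are not given for these left-out genes.

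Lists of other genes of the pathway had 31 tested members, of which 4 were called higher and 1 lower after cocaine, against 3.16% and 1.29% of all genes. Of the 8 tested adenylyl cyclases, the effectors of Gs and Gi, 2 rose: Adcy6 by 0.40 ± 0.10, with means of 6.88 ± 0.19 after cocaine and 6.47 ± 0.34 after saline (SD, n = 12 and 11, adjusted p = 0.0270), and Adcy1 by 0.55 ± 0.16 (adjusted p = 0.0498). Adcy5, the main cyclase of the striatum, did not pass the detection filter. Among 8 phospholipase C beta and protein kinase C genes, Prkca, a kinase downstream of Gq, rose by 0.31 ± 0.06 (adjusted p = 0.00648). Kcnj3, a potassium channel opened by beta-gamma, was the 1 tested channel gene and rose by 0.83 ± 0.18, with means of 9.05 ± 0.48 after cocaine and 8.23 ± 0.46 after saline (SD, n = 12 and 11, adjusted p = 0.0102). Ric8b, a chaperone of stimulatory alpha subunits, fell by 0.32 ± 0.08 (adjusted p = 0.0269) and was the 1 called gene of 10 chaperones, anchors and modulators. Of 4 receptor kinases and arrestins 0 were called, and the smallest p belonged to Arrb2 (0.13 ± 0.07, adjusted p = 0.361).

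The marker scores moved with these differences, so the same fits were made without S321X/+ cocaine arrays 9, 16 and 19 and with each score as a covariate. Without the 3 arrays 0 members were called (limma), against 0.483% of all genes, and 6 had an unadjusted p under 0.05, which is 17.6% against 11% of all genes. With the excitatory score 0 members were called, against 0.0789% of all genes, and 0 had an unadjusted p under 0.05, against 3.8%. With the striatal score 0 members were called, against 0.069%, and 0 had an unadjusted p under 0.05, against 3.7%. The difference of Gng4 was 0.29 ± 0.09, 0.22 ± 0.12 and 0.10 ± 0.11 under these 3 settings, and that of Gng7 was -0.16 ± 0.06, -0.04 ± 0.09 and 0.05 ± 0.07. Rgs8 had -0.16 ± 0.08, -0.07 ± 0.13 and 0.11 ± 0.09, while Rgs7 had 0.20 ± 0.07, 0.12 ± 0.09 and 0.14 ± 0.09. The called dimmer probes had, with the excitatory and then the striatal score, -0.23 and -0.21 for Gng7 (ILMN_3030009), 0.20 and 0.11 for Gng2 (ILMN_1214150) and 0.19 and 0.08 for Gnas (ILMN_1223437), all with an adjusted p of 0.999. With the striatal score 2 of the 5 Gnas probes had a negative difference (-0.06 and -0.01). None of the 5 called pathway genes was called under any of the 3 settings. Kcnj3 had 0.63, 0.12 and 0.20, Prkca 0.29, 0.18 and 0.21, Adcy6 0.35, 0.21 and 0.22, and Ric8b -0.23, -0.10 and -0.04. Adcy1 had 0.33, -0.05 and -0.01, with the opposite sign under both scores. The part of the cell makeup of the punches in the differences between injections was not tested beyond these values. Of the genes that make up the scores, 6 of 9 excitatory and 8 of 13 striatal markers were themselves called between the injections. A fit with a score therefore cannot tell the injection apart from the marker levels.

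**Figure D3:**
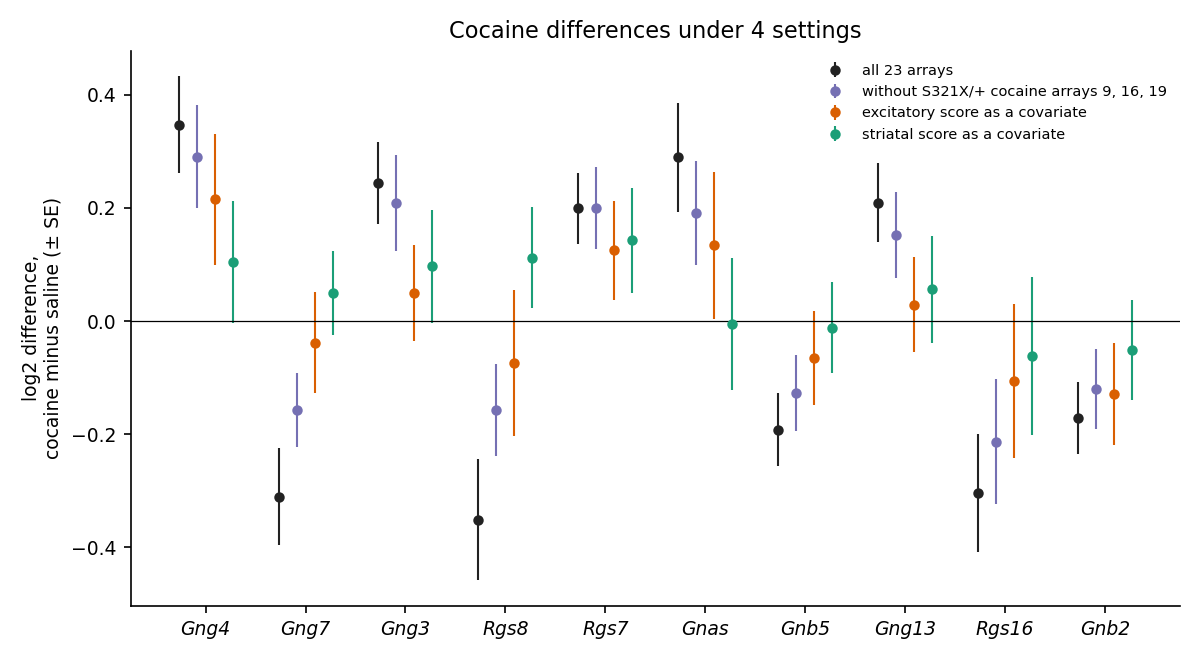
Log2 difference between cocaine and saline, averaged over the genotypes (points, with SE), for the 10 members with the smallest p, each under 4 settings shown by colour: all 23 arrays, without S321X/+ cocaine arrays 9, 16 and 19, and with the excitatory or the striatal marker score as a covariate. Gng7 moves through -0.31, -0.16, -0.04 and 0.05. Rgs7 stays between 0.12 and 0.20 but was not called under any of the 4 settings.

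**Figure D4:**
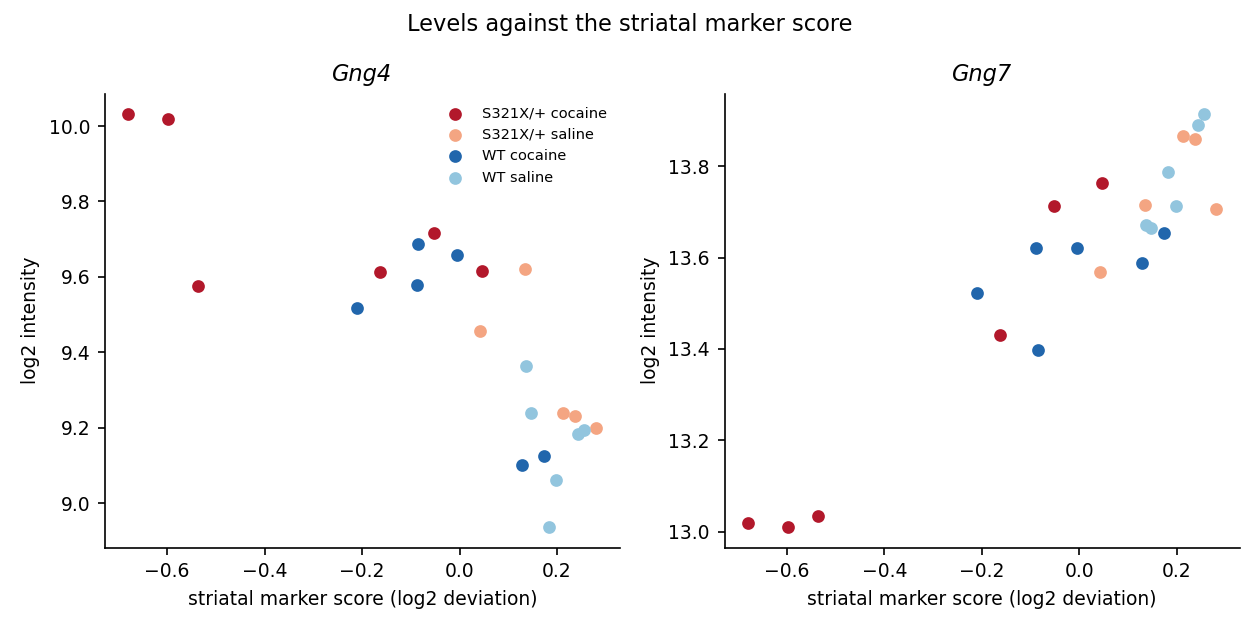
Log2 intensity of Gng4 and Gng7 on each of the 23 arrays against the striatal marker score of the array (mean log2 deviation of 13 genes), coloured by group. The 3 arrays with scores between -0.68 and -0.54 are S321X/+ cocaine arrays with Gng7 levels between 13.01 and 13.03, and all saline arrays have scores above 0.

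Among the saline arrays alone, where no cocaine was given, the level of each member was set against the excitatory score with genotype in the model. No member passed (0 of 34, limma, against 0.158% of all genes), and 3 had an unadjusted p under 0.05, which is 8.82% against 8% of all genes (5.63% with a positive and 2.37% with a negative slope). Gng2 had the largest slope, 0.83 ± 0.20 log2 units per unit of the score (adjusted p = 0.190), followed in p by Rgs10 (-0.36 ± 0.14), Rgs19 (0.30 ± 0.14), Rgs12 (0.34 ± 0.16) and Rgs2 (0.25 ± 0.14). Array 14 of the S321X/+ saline group held both the lowest score, -1.47, and a low Gng2 value, 8.45, and without it the slope of Gng2 was 1.12 (adjusted p = 0.852). In the authors' values with the replicate number as a block, a fit with few residual degrees of freedom, the slope of Gng2 was -0.040. The slopes of Gng7 and Gng4 were -0.16 ± 0.11 and 0.08 ± 0.14, and that of Rgs8 was 0.00 ± 0.10. On the striatal score the slopes were -3.25 ± 1.59 for Gng2, 1.20 ± 0.61 for Gng7 and -1.32 ± 0.75 for Gng4 log2 units per unit of the score (adjusted p = 0.999 for each).

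Within each genotype, cocaine was set against saline to see the difference separately. In S321X/+ mice 0 of 34 members were called (limma, against 2.68% of all genes, 1.95% higher and 0.73% lower), and 13 had an unadjusted p under 0.05, 7 higher and 6 lower, which is 38.2% against 16.5% (8.57% higher and 7.96% lower). The 5 smallest p values belonged to Gng3 at 0.38 ± 0.11 (adjusted p = 0.0554), Gng7 at -0.42 ± 0.12 (adjusted p = 0.0780), Gng4 at 0.41 ± 0.12 (adjusted p = 0.0821), Rgs7 at 0.30 ± 0.09 (adjusted p = 0.0844) and Rgs8 at -0.48 ± 0.16 (adjusted p = 0.107). On its dimmest probe (ILMN_3030009) Gng7 was called in S321X/+ mice, at -0.91 ± 0.19 (adjusted p = 0.0129). In wild type 0 of 34 were called (limma, against 0.109% of all genes), and 2 had an unadjusted p under 0.05, Gng4 at 0.28 ± 0.12 and Gng2 at 0.48 ± 0.22, which is 5.88% against 8.58% of all genes (4.68% higher and 3.91% lower). Next in p were Gng12 at 0.22 ± 0.11, Rgs12 at 0.29 ± 0.16 and Gnb4 at -0.18 ± 0.10. Gng7 was the 1 member whose wild-type groups did not overlap (2.94%, against 0.641% of all genes), with a difference of -0.21 ± 0.12 (adjusted p = 0.649). The SE and p of these fits use the pooled spread of all 4 groups. For Gng7 the SD was 0.09 after cocaine and 0.11 after saline in wild type, and 0.36 and 0.12 in S321X/+ mice. In S321X/+ mice no member had groups that did not overlap, against 2.36% of all genes.

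The genotype dependence of the cocaine difference was tested as the difference between the cocaine effects. No member passed (0 of 34, limma, and 0 of 10138 genes, 0%), and 0 members had an unadjusted p under 0.05, against 4.81% of all genes (2.32% above and 2.5% below 0). The smallest p belonged to Gng3, whose effect was larger in S321X/+ mice by 0.28 ± 0.15 (adjusted p = 0.927, 95% interval -0.02 to 0.58). Next in p were Gnaz at 0.23 ± 0.13, Rgs4 at 0.23 ± 0.14, Gnaq at 0.18 ± 0.11 and Rgs7 at 0.21 ± 0.13. For Gng7 the difference between the effects was -0.21 ± 0.17 and for Gng4 0.13 ± 0.17. As a description, 28 of 34 members (82.4%) had the same sign of the cocaine difference in both genotypes, against 62.8% of all genes, and 23 (67.6%) had the larger difference in S321X/+ mice, against 59.3%. Across the 34 members, which are not independent replicates and share their arrays, the S321X/+ and wild-type differences correlated with r = 0.66, against 0.48 across all genes.

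**Figure D5:**
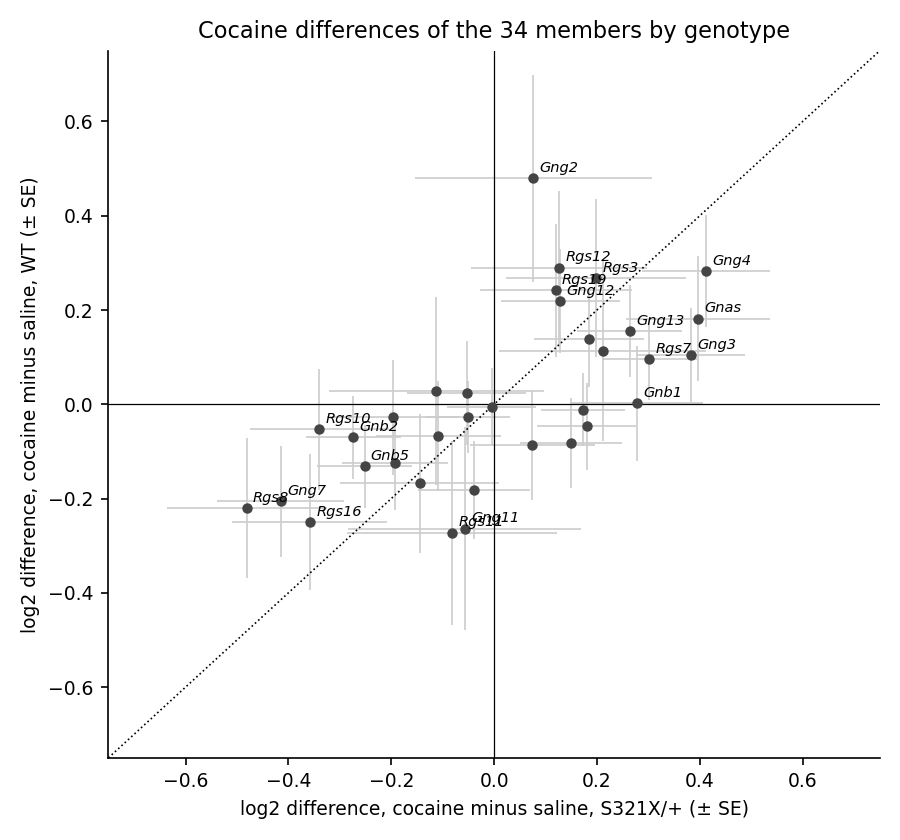
Log2 difference between cocaine and saline in S321X/+ mice (horizontal axis) and in wild type (vertical axis) for the 34 members, with the SE of each as grey lines, and a dotted line of equal differences. Gng7 lies at -0.42 and -0.21 and Gng4 at 0.41 and 0.28, and 28 of the 34 points share a sign on both axes.

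The genotypes were also compared within each injection. After saline 0 of 34 members were called (limma, and 0% of all genes), and 3 had an unadjusted p under 0.05, which is 8.82% against 3.71% (2% higher and 1.71% lower). Gng2 differed by 0.60 ± 0.23, with 8.45, 9.12, 9.19, 9.30 and 9.33 in S321X/+ mice against lowest 7.74, median 8.51 and highest 9.01 in wild type, and 4 of 5 S321X/+ arrays lay above all 6 wild-type arrays (adjusted p = 0.999). On the dimmer Gng2 probe the saline ranges of the genotypes, given above, largely overlapped. Rgs4 differed by -0.25 ± 0.10, with 12.07, 12.40, 12.43, 12.54 and 12.59 in S321X/+ mice against lowest 12.53, median 12.64 and highest 12.85 in wild type (adjusted p = 0.999), and 3 of 5 S321X/+ arrays lay below all wild-type arrays. Gng11 differed by -0.48 ± 0.23 (adjusted p = 0.999) but was detected on 1 of 5 S321X/+ and 5 of 6 wild-type arrays. Gnb4 differed by -0.21 ± 0.11 and Gnb2 by 0.17 ± 0.09, and Gng7 and Gng4 by -0.03 ± 0.12 and 0.19 ± 0.12.

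After cocaine 0 of 34 members were called between the genotypes (limma, and 0% of all genes), and 4 had an unadjusted p under 0.05, which is 11.8% against 6.65% (3.63% higher and 3.02% lower). All 4 were higher in S321X/+ mice, Gng4 by 0.32 ± 0.12, Rgs7 by 0.23 ± 0.09, Gng3 by 0.21 ± 0.10 and the inhibitory alpha subunit gene Gnaz by 0.19 ± 0.09, with adjusted p between 0.690 and 0.811. Gng7 and Rgs8 differed by -0.24 ± 0.12 and -0.30 ± 0.15 (adjusted p = 0.811 for both). Without S321X/+ cocaine arrays 9, 16 and 19 these values of Gng7 and Rgs8 were 0.07 and 0.08, with the opposite sign. No member had genotype groups that did not overlap after either injection, against 0.237% of all genes after each.

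Female and male mice (12 and 11 samples) were also compared over the 4 groups, in the authors' values, since only these name the animal, in a comparison added after seeing the data. In the deposited order all male samples come before all female ones. A difference between the sexes therefore cannot be told apart from one that goes with this order. None of the 32 members present was called (limma, against 1.82% of all genes), and 3 had an unadjusted p under 0.05, which is 9.38% against 19%. All 3 had a negative difference (female minus male), Gnaz -0.18 ± 0.06 (means 11.12 in females and 11.30 in males, adjusted p = 0.0866), Gnas -0.22 ± 0.09 (adjusted p = 0.163) and Rgs16 -0.23 ± 0.10 (adjusted p = 0.212). Gng4 and Gng7 differed between the sexes by -0.10 ± 0.09 and 0.01 ± 0.09.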

How the data were processed

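Per the file headers, the deposited table holds a non-normalized intensity and a detection p-value for each probe and array. The authors' processed values, used as an alternative, are on a log2 scale, read from the deposited values. The software behind both was not given in the sources used here. The columns of the intensity table name genotype, injection and array number but no animal. The neqc function of limma 3.58.1 in R 4.3.3 (offset 16) corrected the background and quantile normalized the intensities. The detection filter (p under 0.01, 5 arrays or more) kept 18509 probes, of which 2645 without a single gene entered the adjustment only, and each gene took its brightest tested probe on average. Genes came from the array's annotation table, where 34885 probes name 1 gene, 18 name several and 10378 name none. A linear model of the 4 groups was fitted to the 23 arrays, leaving 19 residual degrees of freedom, with two-sided moderated tests and Benjamini-Hochberg adjustment over all probes, and a member was called at an adjusted p under 0.05. The slope on the excitatory score was fitted to the 11 saline arrays with genotype as a covariate. The fits were tested on simulated data.

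Described in detail are members called in any comparison, the 5 with the smallest p in each, and Rgs2, Rgs4, Rgs8, Rgs16 and Gnb1. Other members are given by their values in brief, and array values of Gnas, Gnb5 and the dimmer Gng2 probe were chosen after their values were seen. In the pathway lists the called genes and the smallest p are named. The members, the gene lists and the markers were chosen with earlier results of these data known. Nothing in the labels ties samples to litters or batches. Alternatives were an offset of 50, quantile normalization with no background step, the values of the authors alone, with a replicate block or with sex, other detection filters, the compared groups alone, array weights, a robust intensity trend, blocks of 6 array numbers, marker scores, the 3 arrays left out, any probe, and each array left out.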

Additional observations from a re-analysis of the deposited data

Results flagged for a closer look

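In 4 of the 76 groups examined (19 named members in 4 groups), 1 array stood apart from the rest by more than Dixon's 95% critical value, and chance flags about 1 in 20 groups. Gng3 was 8.83 on S321X/+ cocaine array 11, below the next value of 9.20. Gng2 was 9.50 on S321X/+ cocaine array 9, above the next value of 9.14, and 8.45 on S321X/+ saline array 14, below the next value of 9.12. Saline array 14 also had the lowest excitatory score, -1.47. Gnaq was 12.05 on wild-type saline array 17, above the next value of 11.72. No difference between the genotypes in the cocaine effect passed a test for a member.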

How the results depend on the processing

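Averaged over the genotypes, 2 members were called. The count was 2 with an offset of 50, with no background step, and with the authors' values, alone or with sex. It was 1 without a detection filter or with blocks of 6 array numbers, 4 with detection on all 23 arrays, with array weights or with any probe counted, and 6 with a robust intensity trend. It was 0 with either marker score or without S321X/+ cocaine arrays 9, 16 and 19, and 0 to 6 with single arrays left out. The count was 0 without S321X/+ cocaine array 9 or 16 or S321X/+ saline array 14 or 18, where 255 to 287 of all genes were called, and 6 without S321X/+ cocaine array 11, where 694 were, against 451 with all arrays. In S321X/+ mice, where 0 were called, the count was 1 with detection on all arrays, with the authors' values and sex, and with any probe, 2 with array weights, 3 with a robust trend, and 0 to 4 with single arrays left out. In the other 5 comparisons it was 0 under every setting run. Same-numbered samples shared a number and mostly their sex, so the replicate block overlapped with sex. Their deviations from the group means in the authors' values correlated between -0.26 and 0.42 over 33 pairs (median 0.08). Other pairs had a median of -0.02. The replicate block called 3 members (Gng4 at 0.37, Gng7 at -0.32). It turned the slope of Gng2 to -0.040, in a fit with few residual degrees of freedom.

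Some signs turned. With the striatal score the averaged differences were 0.049 for Gng7, 0.11 for Rgs8, -0.020 for Gnb1 and 0.056 for Rgs2. In S321X/+ mice Gng7 and Rgs8 then had 0.10 and 0.18, and Gng7 had 0.0024 in wild type. Between the genotypes after cocaine Rgs8 and Gng7 had 0.10 and 0.077, and the differences between cocaine effects were 0.094 for Gng7 and -0.074 for Gng4. With the excitatory score that of Gng7 was 0.0046. Without the 3 arrays it was 0.10, and the genotype differences after cocaine of Rgs8 and Gng7 were 0.083 and 0.068. With single arrays left out, the averaged difference of Rgs4 ranged from -0.0079 (without S321X/+ saline array 6) to 0.057, the genotype difference of Gng7 after saline from -0.061 to 0.014 (without the same array), and the slope of Gng4 from -0.0097 (without S321X/+ saline array 14) to 0.14. The cause was not tested. Signal near background limits Gng11, Rgs6 and Rgs3.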

Other observations

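The spread of the members within groups had a median SD of 0.20 log2 units, as over all genes tested. It was smallest for Gng10 (0.11) and Gnaq (0.12) and largest for Gng2 (0.41) and Gng11 (0.40).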
